A study of Rattus norvegicus with 24 samples.

Results

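rno-miR-150, rno-miR-342-3p and rno-miR-342-5p, called miR-150, miR-342-3p and miR-342-5p here, were followed in peripheral blood mononuclear cells (PBMC) of rats on 24 one-colour miRNA arrays. They are 3 of the 677 rat miRNAs on the array and were taken by exact match of their names. All 3 were detected on 24 of 24 arrays, as were 132 of the 677 miRNAs. The cells came from female Wistar rats, and blood was drawn under deep anaesthesia at sacrifice. The animals' age is not given in the sources used here. Collagen-induced arthritis (CIA), a model of rheumatoid arthritis, was induced by immunisation with bovine type II collagen, and healthy animals (NOCIA) were kept beside it. CIA and NOCIA were sampled before any therapy. Arthritic animals were then sampled at 1 hour and 34 days of therapy, in arms given mechanical stimulation by a rotated subcutaneous needle (MS, which the labels call AP), peritoneal methotrexate (MTX), a peritoneal saline placebo (PLA), or no therapy but isoflurane in place of ether at blood sampling (ANE). NOCIA was sampled again at both times. The labels call NOCIA and CIA NORA and RA. This gives 12 groups of 2 arrays, and nothing in the labels says whether an array held the RNA of 1 animal or of several, so every p-value measures only the spread between these samples.

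miRNAs are short RNAs that are cut from a hairpin precursor and repress mRNAs that pair with their seed, the bases near the 5' end. miR-150 is abundant in mature, resting lymphocytes, is lost from them on activation, and is known as a repressor of the transcription factor Myb. miR-342 is made from an intron of Evl, a gene of the actin cytoskeleton, and is abundant in lymphocytes and other leukocytes. Its hairpin releases a product from each arm, of which miR-342-3p is the usual guide strand. In a PBMC sample, fewer cells of a type and less of an RNA per cell cannot be told apart.

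RefSeq holds 2 of the 3 mature sequences under these names in assembly GRCr8, and miR-150 is given by name only. Both arms of miR-342 are shown because they share a precursor but no seed. The capitals mark the seed (bases 2 to 8).
rno-miR-342-5p: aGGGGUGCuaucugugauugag
rno-miR-342-3p: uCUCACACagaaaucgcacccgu
miR-342-5p lies at chr6:133329673-133329694 and miR-342-3p at chr6:133329715-133329737, both on the plus strand of GRCr8, inside the span of Evl. Among the 693 mature rat miRNAs of the same table, 0 others carry the seed of miR-342-5p and 0 others that of miR-342-3p. In the precursor, at chr6:133329655-133329753, the capitals mark the 5p arm (bases 19 to 40) and then the 3p arm (bases 61 to 83).
hairpin of miR-342: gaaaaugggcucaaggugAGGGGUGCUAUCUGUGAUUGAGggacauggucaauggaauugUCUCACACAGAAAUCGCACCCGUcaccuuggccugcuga

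The arrays were read with 2 probes for miR-150, 2 for miR-342-3p and 4 for miR-342-5p. Each probe of miR-150 and miR-342-3p was spotted 10 times, and each probe of miR-342-5p 5 times. The total intensity of a miRNA is the sum over its lit probes. For miR-150 and miR-342-3p both probes entered on all 24 arrays. For miR-342-5p, 2 of the 4 probes stayed near 0 (at most 1.24 and 1.65 intensity units), so its total rests on the other 2, and on 1 of them alone on replicate 2 of PLA at 1 hour. The error that the scanner software lists for a total had a median of 8.35% for miR-150, 7.19% for miR-342-3p and 9.93% for miR-342-5p. Levels were compared between arrays and not between miRNAs.

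An array detected 145 to 207 miRNAs, none of its spots being saturated, and the intensities of its detected miRNAs summed to between 137544 and 519917 (median 196310). This sum was highest on replicate 1 of MS at 34 days (519917) and next on replicate 1 of MS at 1 hour (371061). The 24 arrays lay on 3 slides, each group on 1 slide and each slide with 4 groups. Slide 1 held MS, MTX and PLA at 34 days and ANE at 1 hour. Slide 2 held both groups before therapy and NOCIA and ANE at 34 days, and slide 3 held the other 4 groups at 1 hour. The miR-142 arms, which mark blood cells of all lineages, and miR-223, a myeloid miRNA, were detected on all 24 arrays. A level below is log2 of the total intensity after scaling each array to the same 75th percentile over the 132 miRNAs.

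miR-150 had its highest group mean in CIA before therapy and its lowest in MS at 34 days. Its level was 13.38 and 13.47 on the CIA arrays before therapy and 12.87 and 12.83 on the NOCIA arrays. At 1 hour it was 13.30 and 12.89 in NOCIA, 10.26 and 13.29 in MS, 13.18 and 13.42 in MTX, 12.06 and 12.35 in ANE, and 13.16 and 11.65 in PLA. The low mean of MS at 1 hour was that of 1 array, and the other MS array stood beside NOCIA and MTX. At 34 days it was 13.02 and 12.44 in NOCIA, 9.55 and 12.43 in MS, 12.42 and 13.08 in MTX, 12.56 and 13.38 in ANE, and 13.31 and 13.23 in PLA. Replicate 1 of MS at 34 days was the lowest of all 24 arrays, and replicate 2 of the same group stood at the lower edge of the MTX arrays.

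miR-342-3p also had its highest group mean in CIA before therapy, and its group means spanned less. Before therapy its level was 11.05 and 11.21 in CIA and 10.60 and 10.58 in NOCIA. At 1 hour it was 10.91 and 10.56 in NOCIA, 8.89 and 10.81 in MS, 10.82 and 11.11 in MTX, 10.30 and 9.88 in ANE, and 10.72 and 9.72 in PLA. Here the lowest of the 24 arrays was replicate 1 of MS at 1 hour. At 34 days it was 10.48 and 10.29 in NOCIA, 9.49 and 10.18 in MS, 10.22 and 10.45 in MTX, 10.19 and 10.76 in ANE, and 10.69 and 10.86 in PLA. Both MS arrays at 34 days lay below all arrays of the other 4 groups at that time. The margin was narrow, 10.18 in MS against 10.19 in ANE, and the share of all miRNAs that did so was not computed. Unscaled, these 2 MS arrays stood at ranks 17 and 20 of 24 from the lowest.

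miR-342-5p comes from the other arm of the same hairpin and was likewise highest in CIA before therapy. Its level was 6.08 and 6.10 in CIA and 5.55 and 5.58 in NOCIA before therapy. At 1 hour it was 5.78 and 5.50 in NOCIA, 3.52 and 5.81 in MS, 5.72 and 5.98 in MTX, 4.62 and 4.67 in ANE, and 5.82 and 4.06 in PLA. In ANE at 1 hour both replicates were low, 0.04 apart. At 34 days it was 5.30 and 5.22 in NOCIA, 3.54 and 5.10 in MS, 5.08 and 5.32 in MTX, 5.17 and 5.66 in ANE, and 5.68 and 5.75 in PLA. The plot of levels by group shows these values for the 3 miRNAs.

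**Figure D1:**
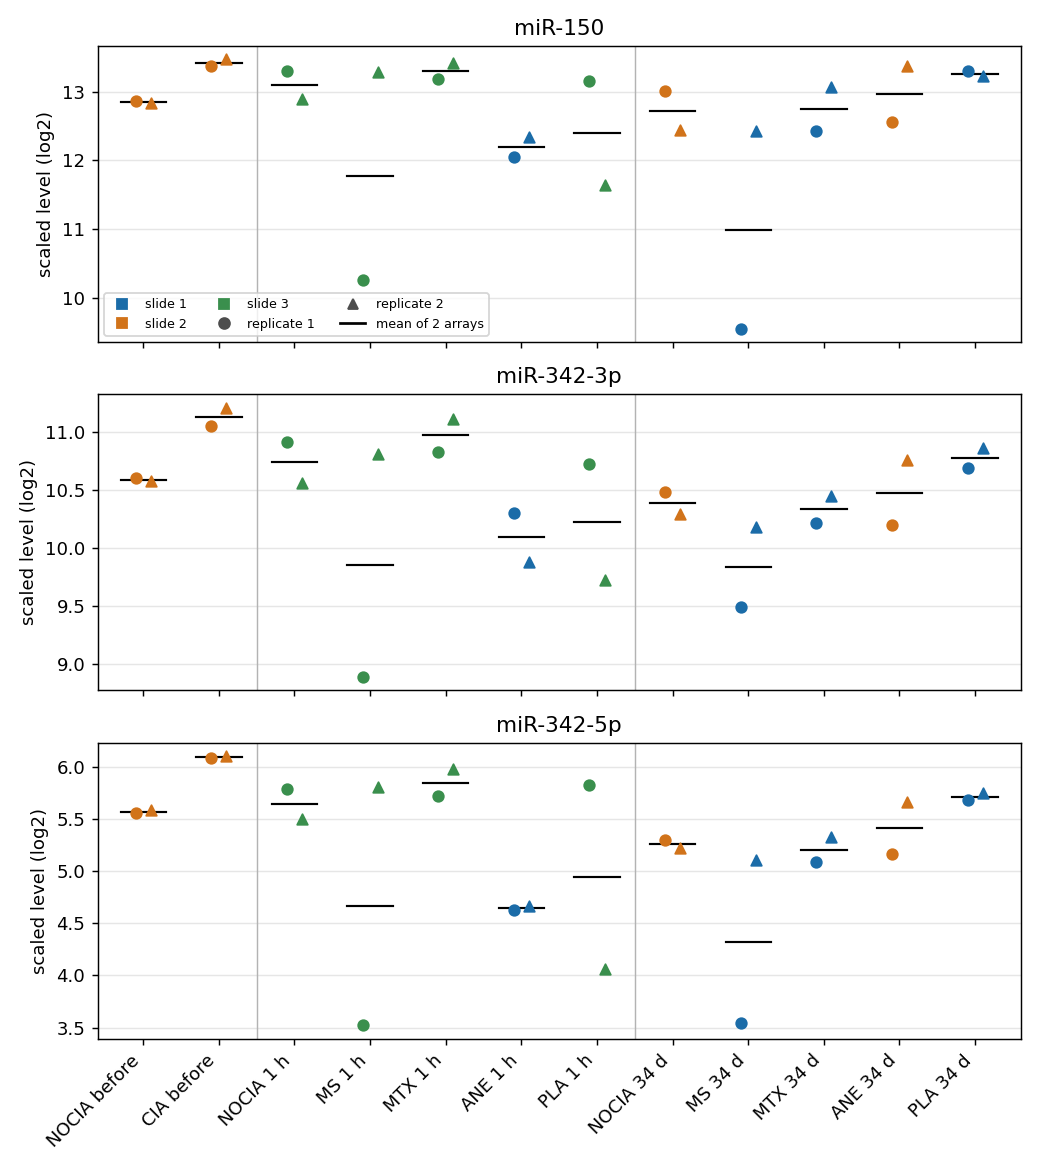
Scaled level (log2) of miR-150, miR-342-3p and miR-342-5p on each of the 24 arrays, by group in time order; circles and triangles are replicates 1 and 2, colours are the 3 slides and black lines the mean of 2 arrays. Replicate 1 of MS at 1 hour and of MS at 34 days are the 2 lowest points for miR-150, at 10.26 and 9.55, while their fellow replicates sit at 13.29 and 12.43.

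For each of the 3 miRNAs the 4 highest group means were, in order, those of CIA before therapy, MTX at 1 hour, PLA at 34 days and NOCIA at 1 hour. The group means of miR-150 ran from 13.42 to 10.99, those of miR-342-3p from 11.13 to 9.84 and those of miR-342-5p from 6.09 to 4.32. Between neighbours in that order, the ranges of the 2 arrays overlapped in 11 of 11 steps for miR-150, 11 of 11 for miR-342-3p and 10 of 11 for miR-342-5p. The single step without overlap was that of miR-342-5p from CIA before therapy to MTX at 1 hour (a gap of 0.24 between the means). The difference between replicates, at the median of the 12 groups, was 0.49 for miR-150, 0.32 for miR-342-3p and 0.25 for miR-342-5p. In MS at 1 hour it reached 3.03, 1.93 and 2.29, and in MS at 34 days 2.88, 0.69 and 1.56. Across the 24 arrays the level of miR-150 spanned 3.92, which was rank 7 among the ranges of the 132 miRNAs, against a median range of 1.33. The ranges of miR-342-5p (2.58) and miR-342-3p (2.32) were at ranks 18 and 26. Without the 2 low MS arrays the spans were 1.82, 2.04 and 1.48.

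Whether any of the 12 groups differed was tested first, with limma's moderated F. miR-150 gave F = 1.27 (adjusted p = 0.538), miR-342-3p F = 1.50 (adjusted p = 0.478) and miR-342-5p F = 1.40 (adjusted p = 0.508), adjusted by Benjamini-Hochberg over the 210 miRNAs tested. None of the 3 passed, against a background of 5 of 210 miRNAs (2.38%). Without the 4 MS arrays F was 1.72, 2.59 and 2.33, with adjusted p of 0.528, 0.422 and 0.438. The moderated standard error of a difference between 2 groups was 0.89 for miR-150, 0.48 for miR-342-3p and 0.65 for miR-342-5p on the log2 scale. A difference in miR-150 therefore had to be large to stand out. In the 16 comparisons below, 0 passed at an adjusted p under 0.05 for any of the 3 miRNAs, and 2 for miR-150, 3 for miR-342-3p and 4 for miR-342-5p had an unadjusted p under 0.05. These lay in MS at 34 days against CIA (48.6% of the 210 miRNAs had such a p) and against PLA (40.0%), and in MS (12.9%) and ANE (18.1%) at 1 hour against CIA. The threshold of the study's methods, which asks for a change of more than 2-fold and p under 0.05 without adjustment among miRNAs detected on all arrays compared, was passed by each of these 9 values, and in the same order by 17.6%, 14.8%, 3.33% and 4.29% of the 210 miRNAs.

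**Figure D2:**
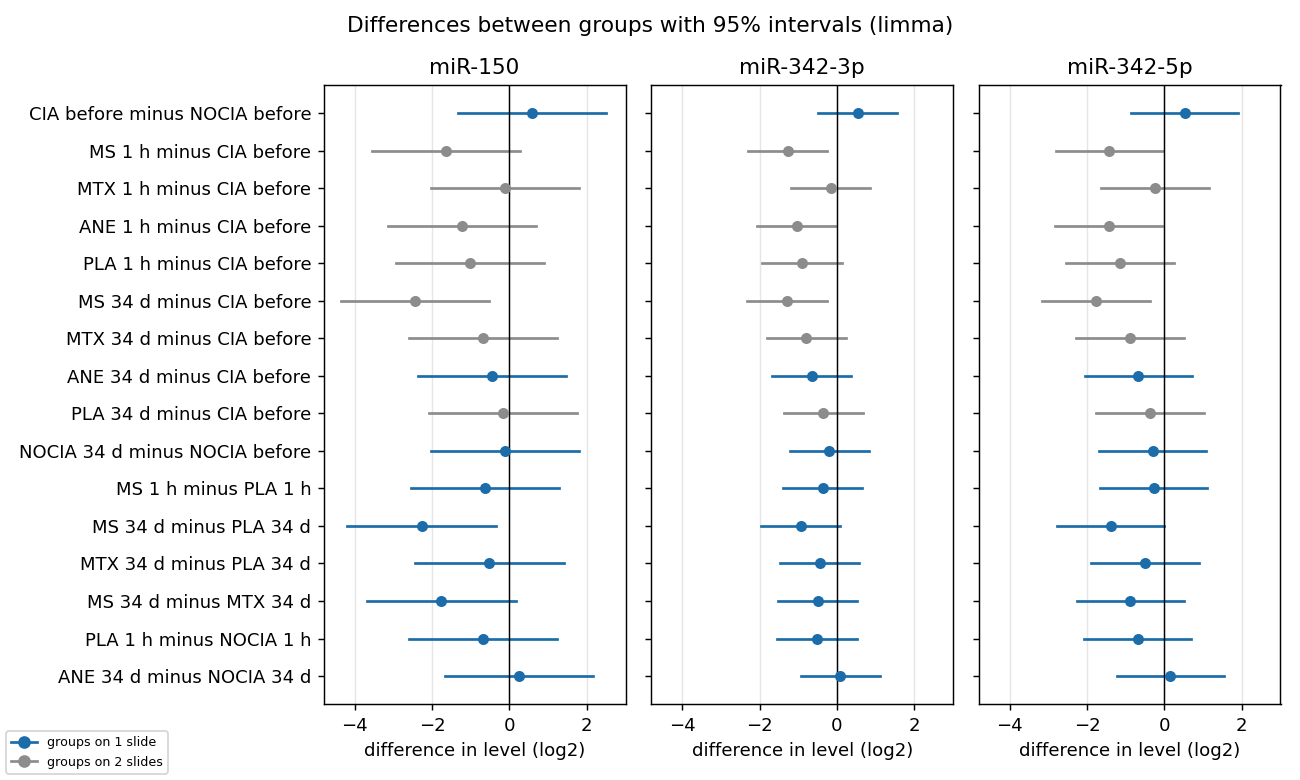
Difference in level (log2) of each miRNA in the 16 comparisons, with limma's 95% interval; blue marks groups that lay on the same slide and grey groups on different slides. The widest departures from 0 are those of MS at 34 days, at -2.43 for miR-150 against CIA before therapy, and 14 of 16 estimates are below 0 for each miRNA.

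The effect of arthritis was compared before therapy, on 1 slide. miR-150 was at 13.42 ± 0.07 (SD, n = 2) in CIA and 12.85 ± 0.03 in NOCIA, a difference of 0.57 (limma, SE 0.89, adjusted p = 0.961). The differences of miR-342-3p (0.54, adjusted p = 0.938) and miR-342-5p (0.52, adjusted p = 0.944) were of like size. Both CIA arrays lay above both NOCIA arrays for all 3 miRNAs, which 58.6% of the 210 miRNAs also showed in 1 direction or the other, and 0.952% of them passed the test. PLA against NOCIA at 1 hour, also on 1 slide, gave differences of the opposite sign, -0.70, -0.52 and -0.70 (adjusted p = 0.990 for each), with overlapping arrays, where 0% of miRNAs passed. ANE against NOCIA at 34 days gave 0.24, 0.09 and 0.16 (adjusted p = 1 for each), and the arrays overlapped there too. An interaction term for the change of the difference from before therapy to PLA at 1 hour was -1.27 for miR-150 (adjusted p = 0.797), -1.06 for miR-342-3p and -1.22 for miR-342-5p (adjusted p = 0.718 for both).

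All arthritic arrays on slides 2 and 3, 10 in number, were then set against the 6 NOCIA arrays within slide by an exact permutation test (1960 assignments, two-sided). The mean difference was -0.10 for miR-150 (exact p = 0.906), -0.04 for miR-342-3p (exact p = 0.939) and -0.07 for miR-342-5p (exact p = 0.955). On slide 2 the arthritic arrays were higher, by 0.41, 0.31 and 0.34. On slide 3 the sign was turned, with -0.61, -0.39 and -0.49. None of the 132 miRNAs passed this test after adjustment (0%), and 0.758% had an unadjusted p under 0.05. The sign of this small mean difference also turned with the scaling and with single arrays left out, as given under the processing.

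MS at 34 days gave the largest differences. Against CIA before therapy, which lay on another slide, miR-150 was at 10.99 ± 2.04 (SD, n = 2) compared with 13.42 ± 0.07, a difference of -2.43 with a 95% interval of -4.35 to -0.52 (limma, SE 0.89). That corresponds to a 5.40-fold lower level, and its adjusted p of 0.0549 lay just above the threshold. miR-342-3p differed by -1.29 (SE 0.48, 2.45-fold lower) and miR-342-5p by -1.77 (SE 0.65, 3.40-fold lower), with the same adjusted p of 0.0549. Both arrays of MS lay below both of CIA for all 3 miRNAs, while 68.6% of all 210 miRNAs did not overlap in this comparison and 19.0% passed the test, 3.33% as lower. All 3 fell below CIA at an adjusted p under 0.05 once the values were quantile normalised, taken from the authors' table, or tested among the 132 miRNAs alone. Their adjusted p was 0.182 with arrays scaled over all miRNAs and 0.149 with scaling by the miR-142 arms. It was 0.178 for each with no filter, and 0.260, 0.174 and 0.206 with only the arrays of these 2 groups fitted.

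Within slide 1, MS at 34 days was set against PLA at the same time. The difference of miR-150 was -2.27 (95% interval -4.19 to -0.36, adjusted p = 0.0832), that of miR-342-3p -0.94 (-1.96 to 0.09, adjusted p = 0.143) and that of miR-342-5p -1.39 (-2.78 to -0.0013, adjusted p = 0.122). Both MS arrays lay below both PLA arrays for each miRNA, as in 71.0% of the 210 miRNAs in either direction, and 0% passed (40.0% at an unadjusted p under 0.05). Against MTX at 34 days the differences were -1.76, -0.50 and -0.88 (adjusted p = 0.309, 0.545 and 0.443, where 0% passed). There the arrays did not overlap for miR-342-3p, as for 32.4% of the 210 miRNAs, and overlapped for the other 2. The size rested on replicate 1 of MS. Without it the difference of miR-150 was -0.99 from CIA (adjusted p = 0.557) and -0.83 from PLA (adjusted p = 0.699), and without replicate 2 it was -3.87 (adjusted p = 0.0103) and -3.72 (adjusted p = 0.0170). For miR-342-3p the difference from CIA was -0.95 without replicate 1 and -1.64 without replicate 2, and for miR-342-5p it was -0.99 and -2.55. Leaving out either array of MS at 1 hour, which lowers the pooled spread, brought all 3 miRNAs under the threshold against CIA (adjusted p = 0.0238, 0.0226 and 0.0234), and miR-150 and miR-342-3p against PLA (adjusted p = 0.0419 and 0.0469). Leaving out either array of PLA at 1 hour brought miR-342-5p under it against CIA (adjusted p = 0.0450).

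At 1 hour, MS differed from CIA before therapy by -1.65 in miR-150 (adjusted p = 0.434), -1.28 in miR-342-3p (adjusted p = 0.318) and -1.43 in miR-342-5p (adjusted p = 0.366), across slides. The arrays did not overlap, as for 32.9% of the 210 miRNAs, and 0% passed. Without replicate 1 the differences were -0.13, -0.32 and -0.28, and without replicate 2 they were -3.16 (adjusted p = 0.0260), -2.24 (adjusted p = 0.00422) and -2.57 (adjusted p = 0.0150). Against PLA at 1 hour, on the same slide, MS differed by -0.63, -0.37 and -0.28 (adjusted p = 0.876, 0.843 and 0.901, where 0.952% passed) with overlapping arrays. The sign turned without replicate 1 of MS, to 0.89, 0.59 and 0.86. The MS effect against PLA was not shown to differ between 34 days and 1 hour (interaction -1.65, adjusted p = 0.379, for miR-150, -0.57, adjusted p = 0.578, for miR-342-3p and -1.11, adjusted p = 0.414, for miR-342-5p).

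The 4 MS arrays were also compared with the 10 arrays of the other treated arthritic groups on slides 1 and 3, within slide (on slide 1 these included ANE at 1 hour), by an exact permutation test (420 assignments, two-sided, smallest possible p 0.00238). miR-150 was lower in MS by a mean of 1.41 on the log2 scale, a difference of -1.75 on slide 1 and -1.08 on slide 3 (exact p = 0.0476, adjusted p = 0.267 over 132 miRNAs). miR-342-3p gave -0.65 (exact p = 0.0929, adjusted p = 0.286) and miR-342-5p -0.80 (exact p = 0.152, adjusted p = 0.359). None of the 132 miRNAs passed after adjustment (0%), and 15.9% had an unadjusted p under 0.05, the share beside which the unadjusted p of miR-150 stands. Leaving out 1 array at a time moved the difference of miR-150 between -2.17 and -0.65.

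ANE at 1 hour was low in both replicates. Compared with CIA before therapy, on another slide, the difference was -1.22 for miR-150 (adjusted p = 0.383), -1.04 for miR-342-3p and -1.44 for miR-342-5p (adjusted p = 0.263 for both). None of the arrays overlapped, against 55.2% of the 210 miRNAs, and 0.476% passed. At 34 days ANE differed from CIA by -0.46, -0.65 and -0.68 on 1 slide (adjusted p = 1 for each). PLA at 1 hour differed from CIA by -1.02 in miR-150, -0.91 in miR-342-3p and -1.15 in miR-342-5p (adjusted p = 0.614, 0.568 and 0.575), and its 2 replicates lay 1.51, 0.99 and 1.76 apart. PLA at 34 days differed from CIA by only -0.16, -0.35 and -0.38 (adjusted p = 1 for each). MTX differed from CIA by -0.12, -0.16 and -0.24 at 1 hour (1.43% of miRNAs passed) and by -0.67, -0.80 and -0.89 at 34 days (0% passed, adjusted p = 1 and 0.790), and from PLA at 34 days by -0.52, -0.44 and -0.51 (adjusted p = 0.922). In NOCIA the change from before therapy to 34 days was -0.12, -0.20 and -0.31 (adjusted p = 0.977, 0.920 and 0.920). The 8 differences from CIA share its 2 arrays, whose mean was the highest of the 12 groups for all 3 miRNAs.

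The 3 miRNAs moved together from array to array, and 3 pairs were computed. Over the 24 arrays, Pearson's r was 0.906 and Spearman's rho 0.933 for miR-150 with miR-342-3p, 0.953 and 0.933 for miR-150 with miR-342-5p, and 0.962 and 0.962 for the 2 arms of miR-342. The permutation p was 2e-05 for each r and each rho, also after adjustment over the 3 pairs, the smallest value that 100000 resamples can give. Both levels of a pair carry the same scaling factor of the array, so a positive r can be partly built in. The resampling also shuffled arrays across slides and groups, so this p holds neither constant. Without the 2 arrays farthest from the median, which were the low MS arrays, r was 0.918, 0.950 and 0.947. Within the slides of 8 arrays r ran from 0.874 to 0.995 for miR-150 with miR-342-3p, from 0.863 to 0.982 for miR-150 with miR-342-5p, and from 0.936 to 0.983 for the 2 arms. The replicate differences of the 12 groups, which no group effect enters, gave r of 0.885, 0.958 and 0.939. A common movement was thus present between replicates of a group as well as between groups.

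These correlations depended on the scaling. On the unscaled intensities r was 0.510 (permutation p = 0.013) for miR-150 with miR-342-3p, 0.831 for miR-150 with miR-342-5p and 0.814 for the 2 arms, and without the 4 MS arrays it was 0.831, 0.910 and 0.887. Within slide 1 the unscaled r of miR-150 with miR-342-3p was 0.0512, with 0.870 and 0.929 on the other slides. The scaled level of each miRNA also ran against the summed intensity of the array, with r of -0.840 for miR-150, -0.815 for miR-342-3p and -0.814 for miR-342-5p (permutation p of 2e-05, 6e-05 and 4e-05). Without the 2 low MS arrays these were -0.600, -0.709 and -0.616. Scaling divides by a percentile of the same array's intensities, so a negative r is partly built in. Unscaled, r with the summed intensity was -0.595, 0.028 and -0.335, and Spearman's rho was -0.202, 0.017 and -0.158. The replicate with the higher summed intensity had the lower scaled level in 10 of 12 groups for miR-150, 12 of 12 for miR-342-3p and 10 of 12 for miR-342-5p. On unscaled values this held in 8, 10 and 6 of 12 groups. The part of array brightness in the differences between groups was not tested.

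**Figure D3:**
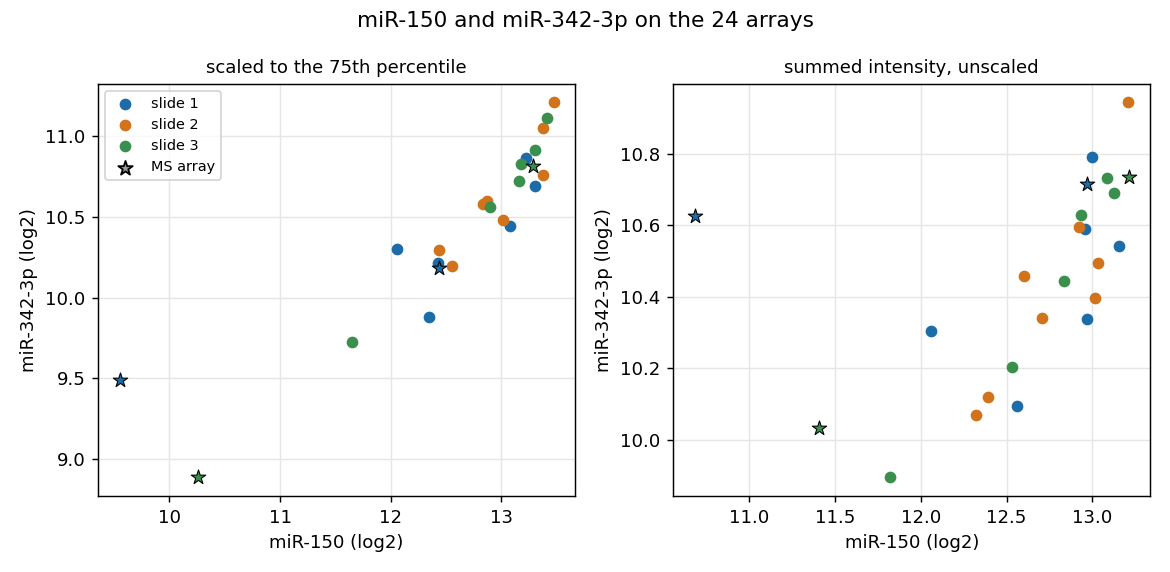
miR-150 (x axis) against miR-342-3p (y axis) on the 24 arrays, both on the log2 scale, scaled to the 75th percentile on the left and unscaled on the right; colours are slides and stars the 4 MS arrays. Scaling gives r = 0.906, and the unscaled panel (r = 0.510) shows replicate 1 of MS at 34 days apart, low in miR-150 but not in miR-342-3p.

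Unscaled, miR-150 remained low on the 2 MS arrays and miR-342-3p did so on only 1 of them. The total intensity of miR-150 was 1645 on replicate 1 of MS at 34 days and 2714 on replicate 1 of MS at 1 hour, the lowest 2 of the 24 arrays, whose median was 7787. That of miR-342-3p was 1579 and 1048 on these arrays, at ranks 17 and 2 from the lowest. For miR-342-5p the intensities were 25.5 and 25.4, at ranks 4 and 3, around a median of 39.8. Against CIA before therapy, the unscaled difference of MS at 34 days was -1.24 for miR-150, -0.10 for miR-342-3p and -0.57 for miR-342-5p, where the median of all 210 miRNAs moved to 1.32 from 0.16 after scaling.

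A ratio within an array needs no scaling, and its change between arrays was compared. The log2 ratio of miR-150 over miR-342-3p had a median of 2.33 and ran from 1.76 to 2.63 on 22 arrays. It was 0.06 on replicate 1 of MS at 34 days and 1.37 on replicate 1 of MS at 1 hour, the lowest 2 values. The next lowest were replicate 1 of ANE at 1 hour (1.76) and replicate 2 of PLA at 1 hour (1.92). The ratio of miR-342-3p over miR-342-5p varied less, with a median of 5.11 and its highest value, 5.95, again on replicate 1 of MS at 34 days. The ratio of miR-150 over miR-342-5p was also lowest on that array (6.01, with a median of 7.41). The other MS replicates had ratios of 2.25 and 2.48 for miR-150 over miR-342-3p, inside the range of the other groups.

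**Figure D4:**
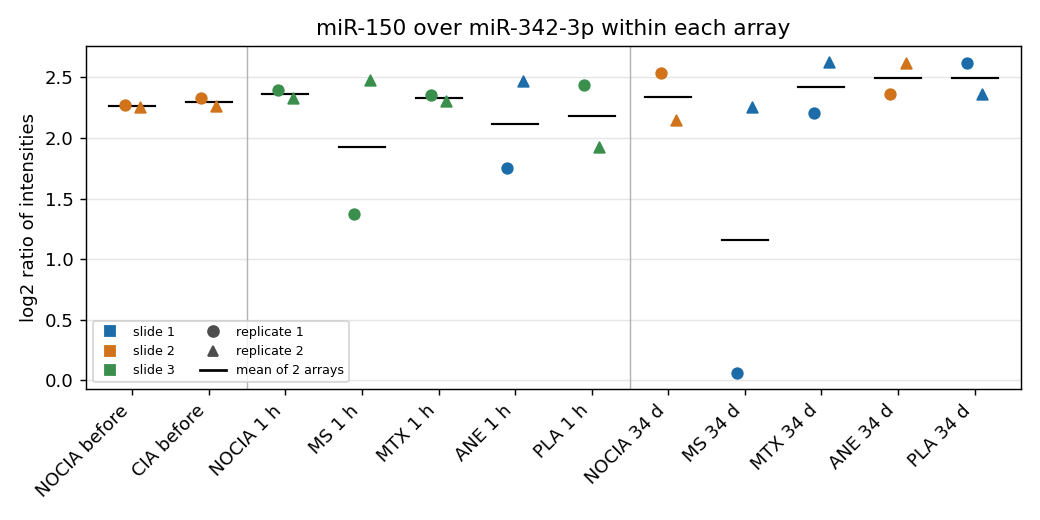
Log2 ratio of the total intensities of miR-150 and miR-342-3p within each array (y axis), by group; circles and triangles are replicates 1 and 2, colours are slides and black lines means of 2 arrays. The 22 other arrays sit between 1.76 and 2.63, and replicate 1 of MS lies at 0.06 at 34 days and 1.37 at 1 hour.

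The lit probes of each miRNA gave like values. For MS at 34 days against CIA before therapy, the 2 probes of miR-150 differed by -2.34 and -2.45, those of miR-342-3p by -1.21 and -1.35, and the 2 lit probes of miR-342-5p by -1.76 and -1.77. Over the 24 arrays each lit probe correlated with its miRNA's level with r of at least 0.988. That level is a sum that contains the probe, so a high r is built in. The star strand miR-150*, cut from the same hairpin as miR-150 and detected on 23 of 24 arrays, was read by its own probes. Its level was 6.58 and 6.67 in CIA before therapy, 3.52 and 6.14 in MS at 1 hour, and 5.30 on replicate 2 of MS at 34 days. On replicate 1 of MS at 34 days miR-150* was not detected and was set to the floor of 2.53. Against CIA it fell by 2.71 (adjusted p = 0.0406), which the floor makes a fitted value and no exact size. Its r with miR-150 was 0.984 over the 24 arrays, against 0.880 with miR-342-3p. Both r include the array set to the floor and the low MS array at 1 hour, and r without them was not computed.

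By Pearson's r of the scaled level over the 24 arrays, among 131 other miRNAs detected on all of them, those most like miR-150 were miR-1949 (0.985), miR-7a (0.968) and miR-342-5p (0.953). Without the 4 MS arrays these r were 0.943, 0.962 and 0.949, and on unscaled values 0.955, 0.861 and 0.831. miR-1949 was at 9.50 and 9.55 in CIA before therapy and at 4.66 and 8.22 in MS at 34 days, so its spread there exceeded that of miR-150. For miR-342-3p the nearest were miR-342-5p (0.962), miR-363 (0.946) and miR-7a (0.929), and for miR-342-5p they were miR-7a (0.966), miR-342-3p (0.962) and miR-150 (0.953). The most opposed was miR-19a for each of them, with -0.917 for miR-150 and -0.867 for miR-342-3p. On unscaled values the latter was only -0.169. The arrays share slides and brightness, and these correlations across arrays are descriptions.

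The miRNAs of other blood cell classes were set beside the 3 miRNAs in the same comparisons. On the lymphoid list (miR-181a to miR-181d, miR-146a, miR-29a to miR-29c and miR-155, the last with no entry under that name on the array), 8 members were measured. In MS at 34 days against CIA, 2 of the 8 rose, miR-181c by 1.06 and miR-181d by 1.16 (adjusted p = 0.0383 for both), and 0 fell. The other 6 were lower without passing, with miR-146a, a feedback inhibitor of NF-kB signalling, at -1.52 (adjusted p = 0.0526), miR-181a at -0.80 and miR-29a at -0.80. That depended on the processing. miR-146a passed as lower in the authors' table (limma, adjusted p = 0.0382) and with median polish (adjusted p = 0.0361), where miR-181a and miR-29a also passed. Unscaled, only miR-146a of the 6 stayed below 0 (-0.33), and miR-29b and miR-29c passed as higher (1.01 and 0.80). The unscaled median of all 210 miRNAs was 1.32. The median of the lymphoid list was -0.52, against 0.16 over all 210 miRNAs. The myeloid list (miR-223, miR-23a, miR-27a and miR-24) had 4 of 4 members risen in that comparison, by 0.89, 0.83, 0.71 and 0.78 (adjusted p = 0.0383 to 0.0407), with a median of 0.81. Of these, miR-23a, miR-27a and miR-24 are members of shared miRNA clusters, so the 4 are not independent markers. Over all 210 miRNAs 15.7% passed as higher and 3.33% as lower in this comparison. The pan-leukocyte miR-142-3p and miR-142-5p were at 0.12 and -0.19, and 0 of 2 passed. Of the erythroid list (miR-451 and miR-144, with miR-486 not on the array under that name) 0 of 2 passed, with differences of -0.79 and 0.23. Of the platelet list only miR-126 was tested, and it differed by 1.17 (adjusted p = 0.0663). Without replicate 1 of MS at 34 days, 0 of the 8 lymphoid miRNAs, 0 of the 4 myeloid ones and 0 of 1 for miR-150* passed (lowest adjusted p = 0.464, 0.464 and 0.477), and the list medians were -0.36 and 0.54. The rises of miR-181c, miR-181d and the myeloid list and the fall of miR-150* also failed the threshold when arrays were scaled over all 677 miRNAs or by the miR-142 arms, with the same signs, and that of miR-23a with median polish (adjusted p = 0.0569).

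Within slide 1, against PLA at 34 days, 0 of the 8 lymphoid, 4 myeloid, 2 erythroid, 1 platelet and 2 pan-leukocyte miRNAs passed. The medians were -0.40, 0.59, -1.27, 1.29 and -0.18, against 0.21 over all miRNAs. The summed scaled intensity of the 8 lymphoid miRNAs was 8981 and 11381 on the MS arrays at 34 days and 13664 to 13983 in PLA. That of the 4 myeloid miRNAs was 21333 to 30417 in MS and 17603 to 17870 in PLA, and 24482 to 24773 in ANE at 1 hour against 13410 to 15400 in CIA before therapy. Of the 210 miRNAs taken singly, 71.0% did not overlap between MS and PLA, and 55.2% between ANE at 1 hour and CIA. The lymphoid sum is weighted to miR-29a and miR-29b, at levels of 12.94 and 11.58 on replicate 1 of PLA. There miR-181c and miR-181d, which were higher in MS, stood at 7.41 and 7.54. In ANE at 1 hour against CIA, the 4 myeloid miRNAs stood at a median of 0.61 with 0 of 4 passing. Over the 24 arrays the r of miR-150 with the lymphoid list was of both signs. It was 0.893, 0.751, -0.882 and -0.831 with miR-181a to miR-181d, and 0.924 with miR-146a. With miR-29a to miR-29c it was 0.925, 0.487 and 0.81. For the myeloid miR-223, miR-23a, miR-27a and miR-24 it was -0.583, -0.815, -0.689 and -0.762. In MS against PLA at 1 hour, where the 3 miRNAs stood at -0.63, -0.37 and -0.28, the 4 myeloid miRNAs were at a median of -0.08 with 4 of 4 below 0 and 0 passing, and their sums overlapped (14491 to 18450 in MS and 15115 to 21336 in PLA). The part of cell composition in the differences was not tested.

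**Figure D5:**
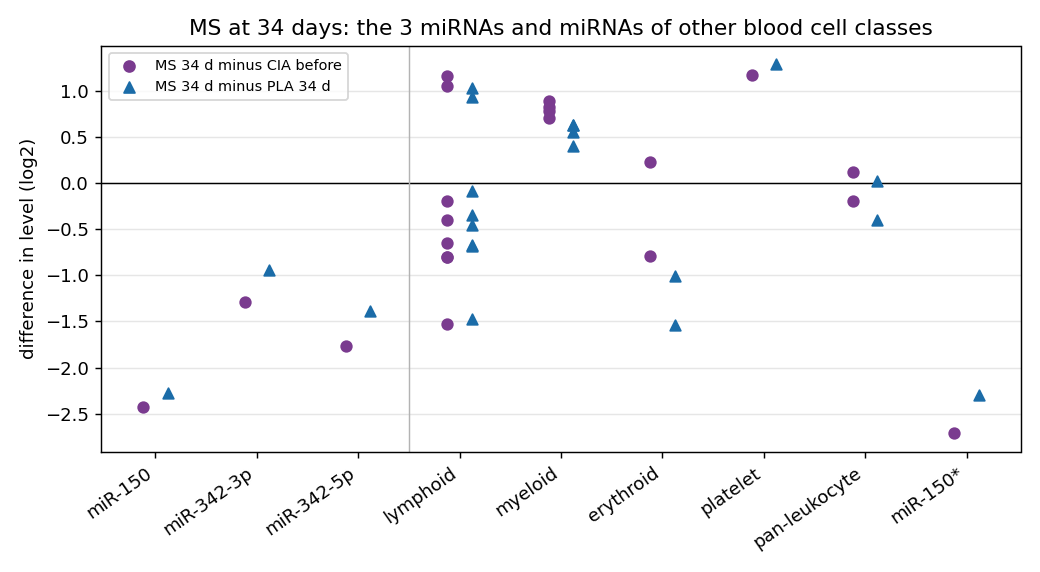
Difference in level (log2) of the 3 miRNAs, of each tested member of the blood cell lists and of miR-150*, for MS at 34 days against CIA before therapy (circles) and against PLA at 34 days (triangles). The 4 myeloid miRNAs lie above 0 (medians 0.81 and 0.59), miR-150 and its star strand lie lowest, and the lymphoid list is split between miR-181c and miR-181d above 0 and 6 members below it.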

How the data were processed

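Per the labels, mononuclear cells were isolated on a density gradient and total RNA was labelled with Cy3. The arrays were Agilent rat miRNA arrays, and the submitters' processing notes name Agilent Feature Extraction 10.7 and RMA (file headers: version 10.7.3.1). The deposited scanner files hold background-corrected linear intensity values, summed per miRNA and not normalised between arrays. A log2 table of processed values, also deposited by the authors, was used as an alternative only, and every one of the 24 columns correlated best with the array it is named for. The study's methods name AgiMicroRna for the summary of spots and limma for the test.

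The total intensity was scaled to the 75th percentile over the 132 miRNAs detected on all arrays (factors 0.452 to 1.42), floored at 5.76 and taken as log2. Detection on 3 or more arrays left 210 miRNAs, fitted with 12 group means in limma 3.58.1 (R 4.3.3, two-sided, Benjamini-Hochberg over the 210). Exact permutation tests within slide and permutation tests of correlations (100000 resamples, SciPy 1.17.1) were run beside it. An exact test of 2 arrays against 2 cannot reach 0.05. Slide was no separate term, since each group lay on 1 slide: 9 of the 16 comparisons lay within a slide, and in the other 7 slide and group cannot be told apart. The fit was tested on simulated data. The alternatives were other scalings, the authors' table, median polish of spots, other filters, array weights, the arrays compared alone, the study's threshold (fold over 2, unadjusted p under 0.05), the replicate number as a block and leaving out each array. The correlations and F without the MS arrays, the interaction terms, and the lists under other scalings or without an MS array were chosen after seeing the data. The members and lists were chosen with earlier results of these data known. Named miRNAs are the 3 members, the 3 with the highest and the 3 with the lowest (most negative) Pearson's r with each, and the lists. For NOCIA at 34 days 1 label line names 1 hour, and the title's 34 days was used. The number of arrays limits the precision.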

Additional observations from a re-analysis of the deposited data

How the results depend on the processing

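The 16 comparisons and the 2 exact tests were recomputed with other scalings, filters and fits. Apart from arrays left out, 560 values stayed on the side of the threshold they were on with no change of sign, 20 moved past the threshold and 29 changed sign. None of the 3 miRNAs passed the F test under any of them or with any array left out. The lowest adjusted p over both kinds of change was 0.174, 0.0686 and 0.171 for miR-150, miR-342-3p and miR-342-5p, the order used below. MS at 34 days against CIA passed at -2.53, -1.40 and -0.60 with quantile normalisation and median polish, at -2.35, -1.29 and -0.79 in the authors' table, and at -2.43, -1.29 and -1.77 among the 132 miRNAs alone or at the study's threshold. At that threshold MS at 34 days against PLA also passed for miR-150 (-2.27, as without a filter) and miR-342-5p (-1.39), as did the last 2 miRNAs at 1 hour against CIA, in MS (-1.28 and -1.43) and ANE (-1.04 and -1.44), where -1.44 also passed with only these arrays fitted. Calls among the 210 miRNAs in MS at 34 days against CIA numbered 40 as reported, 77 with median polish, 70 in the authors' table, 132 unscaled, 2 with miR-142 scaling and 0 scaled over all miRNAs.

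None of the 3 miRNAs had passed in the comparisons or exact tests as reported, so signs could turn only in values that had not passed. The cause was not tested. With scaling over all miRNAs ANE against NOCIA at 34 days became -0.082, -0.23 and -0.17, MS against PLA at 1 hour 0.20, 0.46 and 0.55, and NOCIA at 34 days against before therapy 0.15 and 0.070 for the first 2 miRNAs. Unscaled, NOCIA at 34 days against before therapy became 0.46, 0.38 and 0.27, and arthritic against healthy arrays 0.14, 0.21 and 0.17. ANE against NOCIA at 34 days became -0.11 (miR-342-3p) and -0.040 (miR-342-5p), and MS against PLA at 1 hour 0.092 and 0.18. miR-342-3p unscaled in MS became 0.11 against MTX and 0.10 against PLA at 34 days, and 0.062 against the other treated arrays. For miR-342-3p and miR-342-5p, arthritic against healthy arrays became 0.063 and 0.019 with median polish, 0.084 and 0.13 in the authors' table, and 0.040 and 0.0033 with miR-142 scaling. With median polish miR-342-5p became -0.0034 in ANE against NOCIA at 34 days and 0.042 in MS against PLA at 1 hour.

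Leaving out 1 array at a time kept 1270 values, moved 20 past the threshold and turned the sign of 24. The ranges were -3.87 to -0.99, -1.64 to -0.95 and -2.55 to -0.99 for MS at 34 days against CIA and -3.72 to -0.83, -1.28 to -0.59 and -2.17 to -0.61 against PLA, with -3.16 to -0.13, -2.24 to -0.32 and -2.57 to -0.28 for MS at 1 hour against CIA and -2.14 to 0.89, -1.33 to 0.59 and -1.42 to 0.86 against PLA. ANE against NOCIA at 34 days ran from -0.17 to 0.65, -0.19 to 0.37 and -0.092 to 0.40, and arthritic against healthy arrays from -0.20 to 0.12, -0.12 to 0.11 and -0.16 to 0.089. NOCIA at 34 days against before therapy ran from -0.41 to 0.17 for miR-150, and PLA against NOCIA at 1 hour from -1.45 to 0.059 for miR-150 and -1.58 to 0.18 for miR-342-5p.

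With the replicate block MS at 34 days differed from CIA by -2.43 in miR-150 (limma, adjusted p = 0.0505), and the block changed no call on the 3 miRNAs. Over the 66 pairs of groups, deviations of like-numbered arrays correlated at a median of -0.03 (-0.77 to 0.84, 26 over 0.1). The median shows no general pairing by number, and with so wide a range it cannot settle whether some groups share one. Array weights changed no call on them either.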
